A study of Mus musculus with 1049 samples.

Results

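The high mobility group (HMG) genes and the Igf2 mRNA-binding protein genes examined here were Hmga1, Hmga2, Hmgb1, Hmgb2, Hmgb3, Hmgn1, Hmgn2, Igf2bp2 and Igf2bp3. They were chosen by name, and all 9 were found among the 51777 genes listed for every plate. Levels and shares of cells with a read were followed in dermal fibroblasts of C57Bl/6 mice at 3 ages, newborn (1.5 or 2.5 days), young (2 months) and old (18 months), in experiments 1 and 2. No treatment or mutation is named for any group, and all mice were fed standard chow. The dermis was digested after removal of subdermis and of skin patches in the hair growth phase, and cells were sorted with antibodies to CD45, CD117, EpCam, CD31, CD34 and Pdgfra. Single cells were placed in plate wells and copied by Smart-seq2, which reads polyadenylated RNA along its length and adds no molecular identifiers. The labels name experiments and not mice, so how many animals stand behind an age was not known. They also describe a separate staining of newborn subpopulations and do not say which staining the newborn cells had. After filtering, 735 cells remained, with at least 91 for each age in each experiment.

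HMG proteins are small, abundant chromatin proteins that bind DNA or nucleosomes with little regard to sequence. HMGB proteins bend DNA through HMG box domains, HMGN proteins bind nucleosomes and loosen their packing, and HMGA proteins bind AT-rich DNA through short hook motifs and are best known from embryos and tumours. The IGF2BP proteins bind and stabilise messages, the Igf2 message among them, and are fetal genes in many tissues. In embryonic cells Hmga2 and the Igf2bp genes are kept active by Lin28, which blocks maturation of the let-7 microRNAs that otherwise repress them.

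The reads of all kept cells of 1 age and 1 experiment were added. The 6 resulting sums held 119682449 to 195324769 reads, so n is 2 for each age. Levels are CPM, the reads of a gene in such a sum scaled to 1000000 reads with the TMM library factor. A share is the percent of cells with at least 1 read after each cell was thinned to 100000 reads, and intervals on shares cover the counting of cells only. P-values come from edgeR's quasi-likelihood test over 16684 genes with Benjamini-Hochberg adjustment (threshold 0.05), and they measure only the spread between the 2 experiments, which may be technical. Of 7 fibroblast markers, Col1a1, Col1a2, Dcn and Lum had reads in 95.8% or more of the cells at every age, and Col3a1 in 100% of newborn cells, 99.6% of young cells and 85.8% of old cells. Pdgfra, a marker used in the sort, had reads in 36.95% of newborn cells, 31.7% of young cells and 24.2% of old cells, and Pdgfrb in 18.9% to 22.4% of cells by age. Of other cell types, the defining genes Ptprc (immune), Cdh5 and Tie1 (endothelial) and Rgs5 (mural) had 0 reads, but other genes of their lists were read. Immune lists summed to 2.53 to 154.1 CPM and mural lists to 0 to 116.7 CPM, both highest in a young sum. Csf1r of the immune list was read in 0.803% of newborn cells, 15.45% of young cells and 3.33% of old cells. Kcnj8 of the mural list was read in 1.205%, 15.45% and 11.7% of cells in that order of ages. The endothelial list summed to 6.72 to 74.2 CPM, mostly from Plvap, which was found in 8.43% of newborn cells, 29.3% of young cells and 21.7% of old cells. The keratinocyte list summed to 22.5 to 67.3 CPM, mostly from Krt10, found in 20.5%, 34.15% and 32.5% of cells in the same order of ages. Mast cell genes stayed at or below 0.1485 CPM and melanocyte and Schwann cell genes at or below 8.82 CPM. The part of these genes in the results below was not tested. At equal depth, newborn cells held more genes with a read (medians of 1806.5 and 2222 in experiments 1 and 2) than young cells (1645 and 2045) or old cells (1507 and 1710.5).

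The promoters of the 4 genes that were lower in adult than in newborn sums on every plate are shown first, so that their sequence can be set beside that pattern. These 4 were picked by that pattern, and the share of all genes that have it was not counted. Each promoter is the RefSeq window (GRCm38.p6) of 250 bases before to 50 bases after the start of the gene, in lower case, 5′ to 3′ on the strand of the gene. Capitals mark the CCAAT box, the site of the factor NF-Y, and the cell cycle homology element TTTGAA, which reads TTCAAA on the opposite strand. Both motifs recur in promoters of genes of S phase and mitosis.
Hmgb2, chr8:57511593-57511892, plus strand: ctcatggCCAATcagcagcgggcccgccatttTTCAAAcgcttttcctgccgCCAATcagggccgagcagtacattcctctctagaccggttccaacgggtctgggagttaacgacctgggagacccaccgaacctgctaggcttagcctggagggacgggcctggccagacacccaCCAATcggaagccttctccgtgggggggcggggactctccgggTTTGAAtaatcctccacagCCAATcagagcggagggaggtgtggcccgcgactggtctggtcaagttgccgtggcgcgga
Hmgb3, chrX:71555667-71555966, plus strand: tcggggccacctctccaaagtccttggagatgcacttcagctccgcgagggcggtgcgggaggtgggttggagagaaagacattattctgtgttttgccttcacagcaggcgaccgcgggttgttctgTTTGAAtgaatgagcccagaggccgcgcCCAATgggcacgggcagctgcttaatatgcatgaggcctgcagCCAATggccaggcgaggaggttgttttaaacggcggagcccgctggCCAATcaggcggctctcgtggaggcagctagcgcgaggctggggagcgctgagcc
Hmgn1, chr16:96127676-96127975, minus strand: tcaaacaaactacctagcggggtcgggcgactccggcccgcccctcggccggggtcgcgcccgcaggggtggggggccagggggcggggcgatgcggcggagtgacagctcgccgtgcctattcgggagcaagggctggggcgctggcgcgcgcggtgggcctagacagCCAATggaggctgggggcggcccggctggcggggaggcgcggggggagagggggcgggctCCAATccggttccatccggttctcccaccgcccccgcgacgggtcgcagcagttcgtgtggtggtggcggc
Hmgn2, chr4:133967942-133968241, minus strand: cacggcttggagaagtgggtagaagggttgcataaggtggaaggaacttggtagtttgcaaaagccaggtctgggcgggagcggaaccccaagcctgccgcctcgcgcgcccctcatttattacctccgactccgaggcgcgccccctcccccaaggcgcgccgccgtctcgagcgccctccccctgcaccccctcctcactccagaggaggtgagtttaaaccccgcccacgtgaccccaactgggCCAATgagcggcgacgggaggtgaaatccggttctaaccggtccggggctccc

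Counted on both strands, CCAAT occurred 4 times in the Hmgb2 window, 3 times in that of Hmgb3, 2 times in that of Hmgn1 and once in that of Hmgn2. Of 32851 promoter windows of the same length, 37.4% held CCAAT at least once, 11.7% at least 2 times and 3.37% at least 3 times. TTTGAA occurred 2 times in the Hmgb2 window, one match on each strand, 1 time in that of Hmgb3, and not in those of Hmgn1 and Hmgn2. At least 1 TTTGAA stood in 17.9% of all windows, at least 2 in 2.31%, and both motifs together in 6.95%. The upstream of 2 listed starts of Hmgb1 held 3 CCAAT boxes, the other none. Igf2bp3 held 1 CCAAT and 2 TTTGAA, while no match to either motif lay in the windows of Hmga1, Hmga2 and Igf2bp2. These matches are letters in a window and show no binding.

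The microRNA let-7 is the textbook repressor of the HMGA and IGF2BP messages, and its mature sequence is shown because their 3′ untranslated regions (UTRs) hold its match. Capitals mark the seed, bases 2 to 8.
mmu-let-7a-5p: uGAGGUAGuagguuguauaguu
The seed match CTACCTC occurred 4 times in the longest annotated 3′ UTR of Hmga2 and 1 time each in those of Hmga1, Igf2bp2 and Igf2bp3, and in none of the HMGB and HMGN genes. Of 21037 genes with an annotated 3′ UTR, 9.02% held at least 1 such match and 0.152% at least 3. One site per gene is given with 30 bases on the strand of the gene and the seed match in capitals (GRCm38, GENCODE M21).
Hmga2, chr10:120364214-120364243, minus strand: gacattcaatttCTACCTCagcatcagttg
Hmga1, chr17:27563280-27563309, plus strand: tctgttcacaaaCTACCTCtggacggttgt
Igf2bp2, chr16:22059463-22059492, minus strand: cacaaataaaagCTACCTCaggtgtttttt
Igf2bp3, chr6:49086777-49086806, minus strand: atttttactcaaCTACCTCaggtattcagt
Mature let-7 was not measured here, since Smart-seq2 copies polyadenylated RNA.

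Across the 9 genes, 7 had lower levels in young than in newborn sums in both experiments, where 32.8% of all genes tested did, and the median log2 fold change was -1.47 against -0.07 over all genes. Old sums were lower than newborn sums in both experiments for 7 of the 9 genes (32.7% of all genes), with a median of -1.37 against -0.08. Between old and young sums 3 of the 9 were lower in both experiments (23.5% of all genes), and the median was -0.14 against 0. One of these 27 comparisons passed edgeR's test, Hmgb3 between old and newborn sums, where 0.935% of all genes passed in either direction and 0.138% were called lower. For young against newborn sums 0 of 9 passed, against 0.779% of all genes, and for old against young sums 0 of 9, against 0%. At an unadjusted p under 0.05 edgeR listed 5 of 9 between young and newborn sums (13.3% of all genes), 2 of 9 between old and young (4.85%) and 5 of 9 between old and newborn (15.2%).

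Other tools made more calls on the same genes. DESeq2 called 5 of 9 between young and newborn sums, namely Hmgb2, Hmgb3, Hmgn1, Hmgn2 and Igf2bp3, against 14.1% of all genes. Between old and young sums it called only Hmgb3, 1 of 9 against 6.28%, and between old and newborn sums it called Hmgb2, Hmgb3 and Hmgn2, 3 of 9 against 17%. Limma, run on the mean of log2(CPM + 1) per cell, was restricted to genes with a read in 10% or more of the cells at some age, which left 5 of the 9. It called Hmgb2, Hmgb3 and Hmgn1 lower in young than in newborn sums (3 of 5, against 19.3% of the 6970 genes it tested) and Hmgb2, Hmgb3, Hmgn1 and Hmgn2 lower in old than in newborn sums (4 of 5, against 26.1%). Between old and young sums limma called 0 of 5, against 0.115%. Hmgb3 entered the restricted set only through newborn cells, with a read in 28.5% of them against 2.44% of young and 0.417% of old cells. A filter passed through newborn cells alone favours a call in which newborn sums are higher, so limma's calls on Hmgb3 are no separate support. The same limit holds below for limma's calls on listed genes that entered its set through newborn cells alone.

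**Figure D1:**
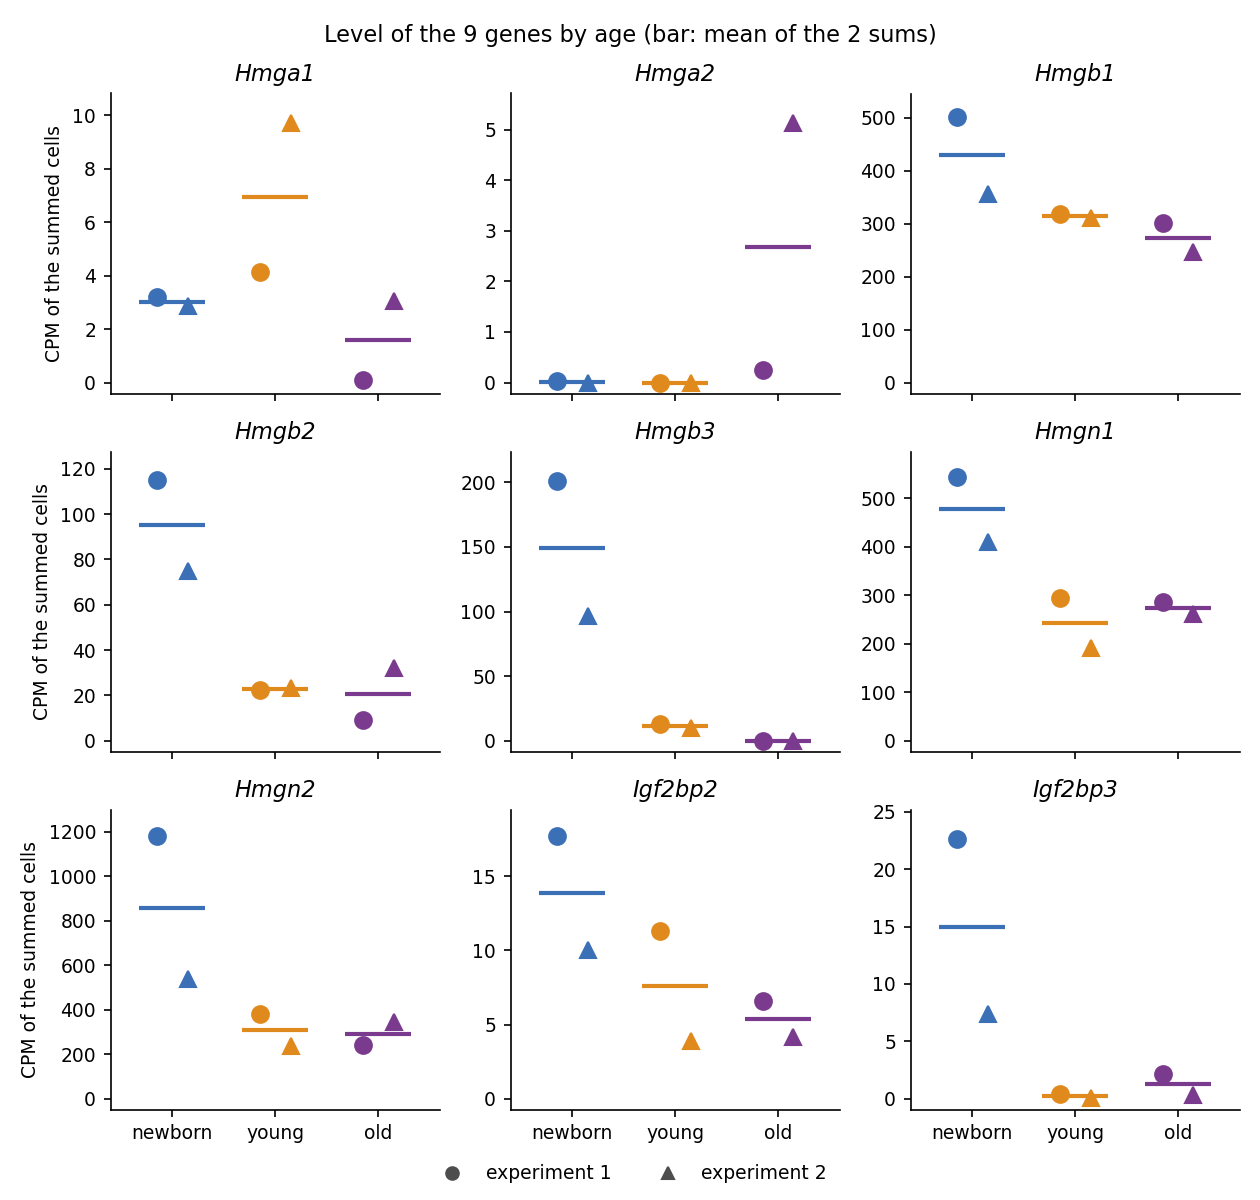
Level of each of the 9 genes in the 6 sums, in CPM on a linear axis that differs between panels, for newborn, young and old cells; circles are experiment 1, triangles experiment 2 and bars the mean of the 2 sums. Hmgb1, Hmgb2, Hmgb3, Hmgn1, Hmgn2 and Igf2bp3 have both newborn sums above all adult sums, while Hmga1, Hmga2 and Igf2bp2 do not. The share of all genes with newborn sums so placed was not counted.

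Hmgb3, whose HMG box protein is known mainly from embryos and blood progenitors, was the gene whose level separated the ages most. Its level was 201.1 and 96.5 CPM in newborn sums of experiments 1 and 2, 12.6 and 9.90 CPM in young sums, and 0 and 0.0111 CPM in old sums. These sums did not overlap between ages, and each step down held in both experiments. Old sums together held 2 reads of Hmgb3, both in 1 cell, against 55272 reads in newborn sums. Scaled to library size this is a ratio of 3.86e-05, with an interval of 4.67e-06 to 0.000139 that covers the counting of reads only. Since both mates of a pair may have been counted, the 2 old reads may be 1 fragment. Without molecular identifiers, reads of 1 cell may also be copies of 1 molecule and are not independent, so the interval is too narrow. Hmgb3 fell in old against newborn sums by edgeR's quasi-likelihood test (adjusted p 0.0184, n = 2 sums per age), and its fitted log2 fold change of -14.42 ± 1.16 depends on the prior count. The adjusted p was 0.0677 with the experiment as a block, so that call was lost. It was also lost when any 1 of the 6 sums was left out (adjusted p 0.0607 to 0.123), where the lone remaining sum of an age is assumed to vary like the others.

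Young sums lay between, at 11.3 ± 1.91 CPM (SD, n = 2) against 148.8 ± 73.96 CPM in newborn sums. The log2 fold change was -3.72 ± 0.72 and the adjusted p 0.142 by edgeR. Against young sums, old sums had a read ratio of 0.000539 (counting interval 6.52e-05 to 0.00195), with an unadjusted p of 0.000154 and an adjusted p of 0.517 by edgeR. Few young cells thus carried the Hmgb3 message. It was read, before thinning, in 5 young cells of experiment 1, of which 1 cell held 69.5% of the reads, and in 1 young cell of experiment 2, which held all 1322 reads of that sum. The young level thus rests largely on 2 cells.

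The share of cells with a read followed the same order. Hmgb3 was read in 29.1% and 26.4% of newborn cells (Wilson 95% intervals 22.6 to 36.6% and 18.4 to 36.3%), 2.82% and 0.962% of young cells, and 0% of old cells in both experiments. None of the 240 old cells had a read after thinning, and a count of 0 leaves room for a share of at most 1.25%. Without thinning, 71 newborn, 6 young and 1 old cell had a read. Among cells with a read, the median level was 88.2 and 489 CPM in young cells, against 660 and 421 CPM in newborn cells.

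Plates gave a finer view, since each of the 9 plates held cells of all 3 ages. Plate sums of Hmgb3 ran from 74.8 CPM over a median of 116.4 CPM to 287.8 CPM in newborn cells, from 0 over 0.0510 to 38.2 CPM in young cells, and from 0 over 0 to 0.0532 CPM in old cells. Old and young plate sums overlapped, with old sums below young sums on 5 plates, above them on 1 and equal to them on 3. Every newborn plate sum lay above every young and every old one. Such a gap, with the older age lower, was found for Hmgb3, Hmgn1 and Hmgn2, 3 of 9 genes, in young against newborn plates (1.11% of all genes) and in old against newborn plates (1.21%).

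**Figure D2:**
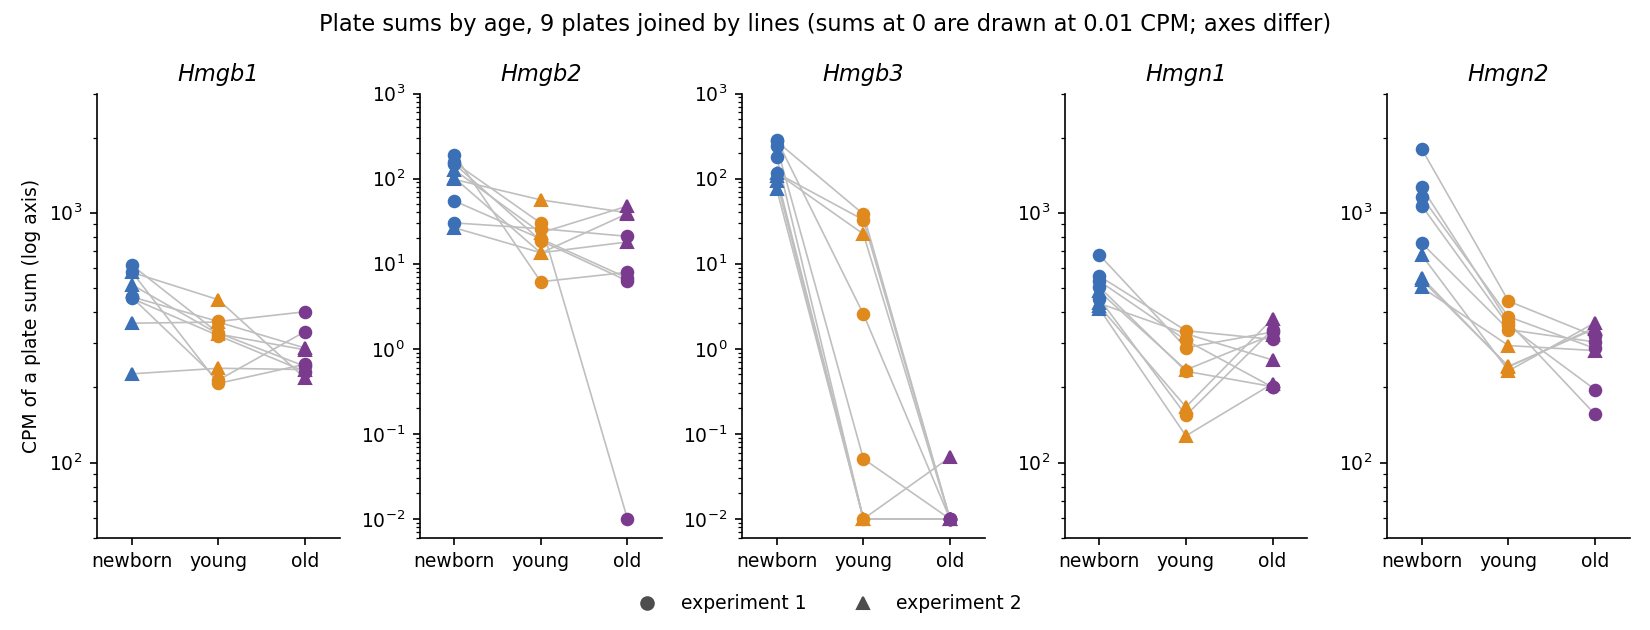
CPM of the plate sums of the 5 widely read genes, on log axes that differ between panels, in newborn, young and old cells; each grey line joins the sums of 1 plate, circles are plates of experiment 1, triangles plates of experiment 2, and sums at 0 are drawn at 0.01 CPM. The 9 newborn sums of Hmgb3, Hmgn1 and Hmgn2 lie above all young and old sums, and those of Hmgb1 and Hmgb2 overlap with them.

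Hmgb2, an HMG box protein known for its high level in proliferating cells, stood at 115.1 and 75.05 CPM in newborn sums, at 22.3 and 23.3 CPM in young sums, and at 9.28 and 32.2 CPM in old sums. Both newborn sums exceeded all adult sums, and the old sums differed from each other more than from the young ones. The log2 fold change was -2.06 ± 0.68 for young against newborn sums (adjusted p 0.294 by edgeR) and -2.20 ± 0.69 for old against newborn sums (adjusted p 0.237). DESeq2 gave adjusted p-values of 0.0308 and 0.0149, and limma gave 0.0209 and 0.00987. Plate sums ran from 26.5 over 102.1 to 191.8 CPM in newborn cells, 6.14 over 19.6 to 56.2 CPM in young cells and 0 over 18.0 to 47.6 CPM in old cells. They overlapped between ages, although on each of the 9 plates both adult sums were below the newborn sum. Old sums were below young sums on 5 plates and above them on 4.

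Reads of Hmgb2 were found in 34.2% and 36.3% of newborn cells, 11.97% and 22.1% of young cells and 7.14% and 19.3% of old cells. In cells with a read its median level was 194.4 and 126.3 CPM in newborn cells, 124.5 and 84.5 CPM in young cells and 122.03 and 142.2 CPM in old cells. These medians leave out how uneven the cells were, since the sums of experiment 2 differed between young and newborn cells by a larger factor than the shares did. Experiment 2 gave the higher share at every age, and it also gave more genes per cell at equal depth.

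Hmgb1, the main HMGB gene of most cells and, once released, an extracellular alarm signal, was read in nearly all cells at every age. Its level was 501.9 and 356.9 CPM in newborn sums, 319.1 and 310.5 CPM in young sums and 300.5 and 245.6 CPM in old sums. Adult sums lay below newborn sums in both experiments, by log2 fold changes of -0.45 ± 0.25 (young, adjusted p 0.549 by edgeR) and -0.65 ± 0.25 (old, adjusted p 0.324). Its share of cells was 96.2% and 95.6% in newborn cells, 92.3% and 88.5% in young cells, and 88.9% and 90.4% in old cells. Plate sums of Hmgb1 overlapped between all ages, and young plate sums were lower than newborn ones on 7 of 9 plates. Per kilobase of exon, Hmgb1 made up 43.8% and 51.03% of the HMGB level in newborn sums, 82.9% and 83.5% in young sums and 95.1% and 81.99% in old sums. Hmgb3 had 39.4% and 31.02% of that level in newborn sums, 7.36% and 5.99% in young sums, and 0% and 0.00836% in old sums.

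Hmgn2, a nucleosome-binding HMGN protein, had the highest mean level of the 9 genes per kilobase, with 280.8 CPM per kilobase in newborn sums, 101.6 in young sums and 95.4 in old sums. In the old sum of experiment 1 alone Hmgn1 was higher, at 89.01 CPM per kilobase against 78.4 for Hmgn2. In CPM it stood at 1179 and 539 in newborn sums, 382.7 and 239.02 in young sums and 239.8 and 343.8 in old sums. All adult sums lay below both newborn sums, and the experiments disagreed on the order of young and old. The log2 fold changes were -1.47 ± 0.48 for young against newborn sums (adjusted p 0.292 by edgeR) and -1.56 ± 0.48 for old against newborn sums (adjusted p 0.236). Plate sums spanned 502.4 to 1796 CPM in newborn cells (median 755), 232.9 to 443 CPM in young cells (340.6) and 155.98 to 363.3 CPM in old cells (303.9). The message stayed widespread, with reads in 93.7% and 96.7% of newborn cells, 89.4% and 82.7% of young cells and 70.6% and 85.97% of old cells. In cells with a read, its median level was 732 and 398 CPM in newborn cells, 329.02 and 223.5 CPM in young cells and 254.4 and 288.4 CPM in old cells.

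Hmgn1, the other HMGN protein of the set, differed between newborn and adult cells both in share and in level. It was read in 79.7% and 83.5% of newborn cells (Wilson 95% intervals 72.8 to 85.3% and 74.6 to 89.7%), 49.3% and 53.8% of young cells and 53.2% and 54.4% of old cells (44.5 to 61.7% and 45.2 to 63.2%). Its level was 545 and 410 CPM in newborn sums, 293.8 and 191.1 CPM in young sums and 286.7 and 260.95 CPM in old sums. Log2 fold changes were -0.98 ± 0.30 for young against newborn sums and -0.80 ± 0.30 for old against newborn sums, with adjusted p-values of 0.262 and 0.305 by edgeR and 0.0015 and 0.00285 by limma. Old and young sums differed by 0.18 ± 0.30 on the log2 scale (adjusted p 1 by edgeR). Young plate sums ranged over 128.05 to 337.4 CPM and old ones over 200.4 to 376.6 CPM, all below the lowest newborn plate sum of 413 CPM.

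**Figure D3:**
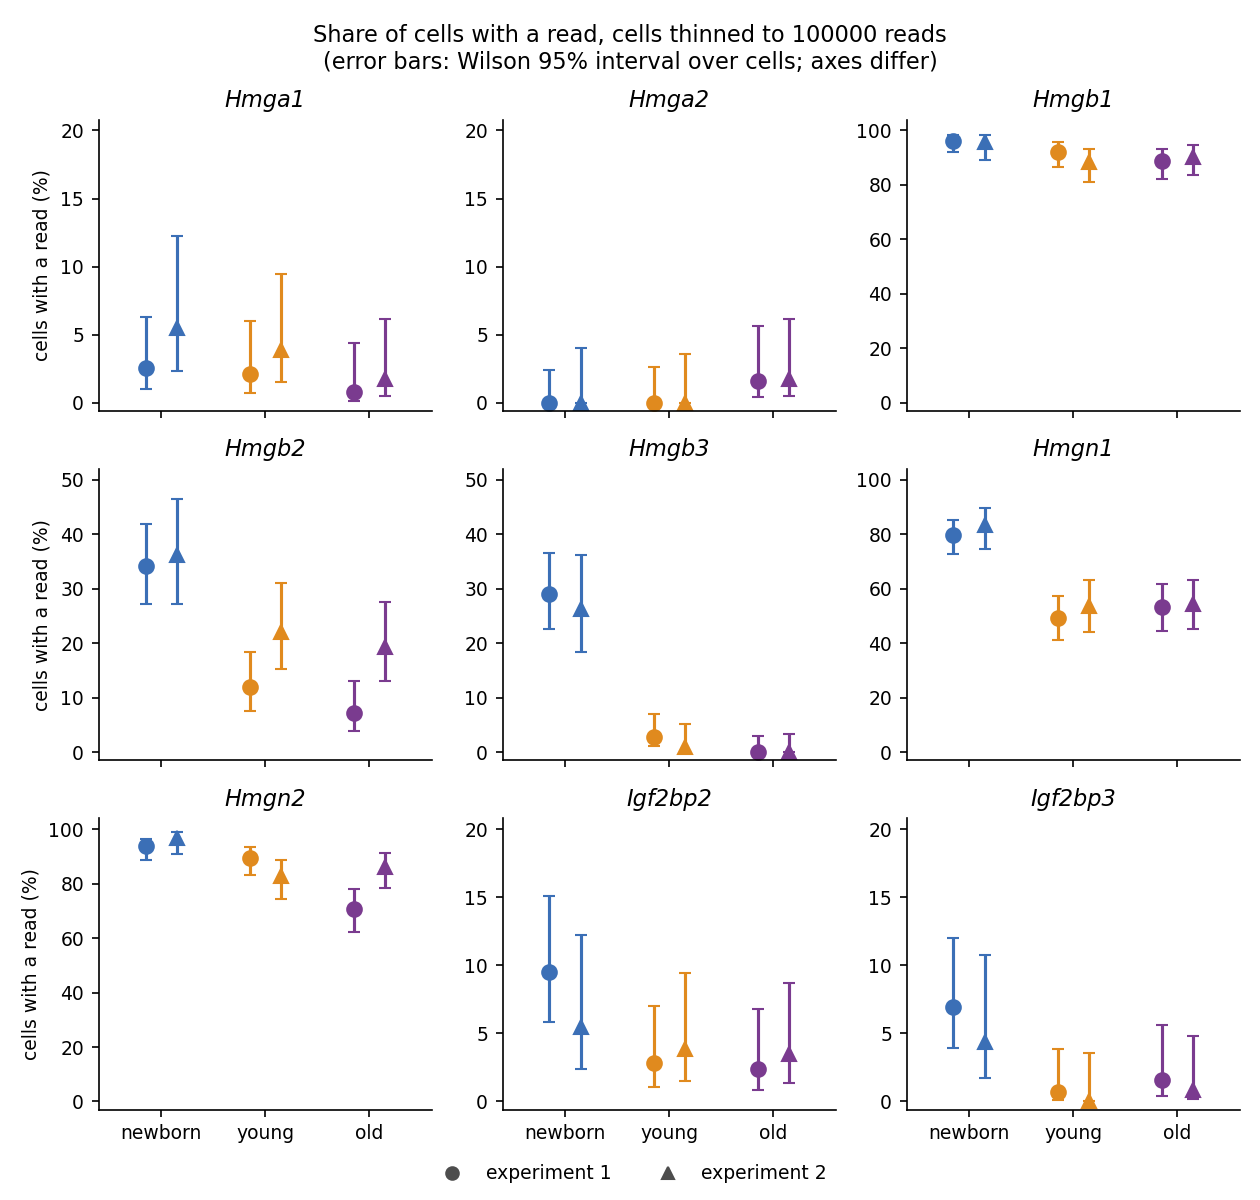
Percent of cells with at least 1 read of each gene after thinning every cell to 100000 reads, for newborn, young and old cells; circles are experiment 1, triangles experiment 2, error bars are Wilson 95% intervals over cells, and axes differ between panels. Hmgb3 stands at 0% in old cells against 29.1% and 26.4% in newborn cells, and Hmgn1 at 49.3% to 54.4% in adult cells against 79.7% and 83.5% in newborn cells.

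Hmga1, an AT-hook protein abundant in embryos and tumours, was rare at all 3 ages. Its level was 3.20 and 2.86 CPM in newborn sums, 4.14 and 9.73 CPM in young sums and 0.108 and 3.07 CPM in old sums, so the ages overlapped. It was read, without thinning, in 12 newborn, 10 young and 6 old cells. Log2 fold changes were 1.19 ± 1.80 for young against newborn sums and -0.93 ± 1.79 for old against newborn sums (adjusted p 0.895 and 0.913 by edgeR). Hmga1 had 3566 reads in all, against 55577 for AI413582, a gene that overlaps it on the opposite strand. Whether counting used strand is not given in the sources used here, so the Hmga1 values are uncertain.

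Hmga2, the related protein that in mice drives fetal growth, was read in 2 newborn cells with 6 reads, in 0 young cells and in 6 old cells with 958 reads. For cells counted with a read, the 0 leaves room for a share of at most 1.22% over both young groups. It does not bound Hmga2 itself, because a near-identical copy, Gm38158, did have reads in young cells and how reads were assigned between the pair is unknown. The level was 0.0290 and 0 CPM in newborn sums, 0 and 0 CPM in young sums, and 0.244 and 5.13 CPM in old sums. Of the old reads, 922 came from 2 cells of experiment 2, so the old level rests on those cells. Neither old against newborn (adjusted p 0.417 by edgeR) nor old against young (0.91) passed. Thus neither HMGA gene had a newborn level above its adult levels in both experiments.

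Igf2bp3, an oncofetal RNA-binding protein, had a level of 22.6 and 7.34 CPM in newborn sums, 0.433 and 0.0300 CPM in young sums and 2.20 and 0.289 CPM in old sums. Both newborn sums lay above all adult sums, but the reads sat in few cells. It was read in 16 newborn, 2 young and 3 old cells without thinning, and 1 newborn cell held 52.8% of the reads of its sum in experiment 1 and another 51.1% in experiment 2. Log2 fold changes were -6.01 ± 2.21 for young against newborn sums (adjusted p 0.346 by edgeR and 0.00295 by DESeq2) and -3.59 ± 1.97 for old against newborn sums (0.491 and 0.129). After thinning, its share was 6.96% and 4.40% in newborn cells, 0.704% and 0% in young cells and 1.59% and 0.877% in old cells. Igf2bp3 had 6165 reads in all, against 28189 for Malsu1, which overlaps it on the opposite strand, so with the strand setting not given these values are uncertain.

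Igf2bp2, the family member that stays on in many adult tissues, stood at 17.7 and 10.0 CPM in newborn sums, 11.3 and 3.86 CPM in young sums and 6.60 and 4.14 CPM in old sums. Within each experiment the newborn sum was the highest, yet the young sum of experiment 1 exceeded the newborn sum of experiment 2. Its reads were found in 9.49% and 5.49% of newborn cells, in 2.82% and 3.85% of young cells, and in 2.38% and 3.51% of old cells, with intervals that overlap. Log2 fold changes against newborn sums were -0.87 ± 1.02 (young, adjusted p 0.837 by edgeR) and -1.37 ± 1.033 (old, adjusted p 0.633). Igf2bp1, the remaining family member, had 0 reads in adult sums and 14 in newborn sums.

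Per kilobase of exon, the newborn order was Hmgn2 (280.8 CPM per kilobase), Hmgn1 (148.3), Hmgb1 (85.5), Hmgb3 (66.6), Hmgb2 (31.7), Igf2bp2 (1.87), Igf2bp3 (1.84), Hmga1 (1.43) and Hmga2 (0.00214). Between the newborn sums, the ranges of Hmgb1 and Hmgb3 overlapped, as did those of Igf2bp2, Igf2bp3 and Hmga1, and the other neighbours in that order did not overlap. The young order of means was the same for the first 3 genes, followed by Hmgb2 (7.60), Hmgb3 (5.04), Hmga1 (3.26), Igf2bp2 (1.02), Igf2bp3 (0.0284) and Hmga2 (0). In the young sum of experiment 2, however, Hmgb1 (61.8) stood above Hmgn1 (59.3). In old sums Hmgb3 (0.00249) had moved to the last place, below Hmga2 (0.397).

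Newborn cells read more of the 9 genes at once. The median cell read 3 and 4 of them in newborn cells of experiments 1 and 2, 2 and 3 in young cells and 2 and 3 in old cells. At least 3 of the 9 were read in 82.9% and 84.6% of newborn cells, 48.6% and 52.9% of young cells and 42.1% and 55.3% of old cells. Within newborn cells, Hmgb3 was read in 42.6% and 48.5% of cells with a read of Hmgb2, against 22.1% and 13.8% of cells without one. Hmgn2 was read in every newborn cell with a read of Hmgb2 and in every one with a read of Hmgb3. It was also read in most other newborn cells, 90.4% and 94.8% of those without Hmgb2 and 91.1% and 95.5% of those without Hmgb3.

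Levels of some of these genes were highest in newborn cells that also read cell cycle genes. From a list of 32 genes of S phase and mitosis, at least 3 were read in 28.5% and 26.4% of newborn cells, 2.82% and 8.65% of young cells and 2.38% and 5.26% of old cells. The highest number in 1 cell was 4 in adult cells and 23 in newborn cells. Newborn cells were put in bins by the number of listed genes read, 0, 1 to 2, 3 to 5 or at least 6, which held 37, 76, 21 and 24 cells in experiment 1 and 23, 44, 11 and 13 in experiment 2. Genes with a read per cell also grew over these bins, with medians of 1632, 1714.5, 2035 and 2562.5 in experiment 1 and 1993, 2233.5, 2617 and 2786 in experiment 2. The part of that gradient in the shares was not tested.

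Hmgb2 was read in 27.03%, 18.4%, 38.1% and 91.7% of the cells of the 4 bins in experiment 1 and in 30.4%, 25%, 36.4% and 84.6% in experiment 2. Its mean level per cell was 39.7, 27.4, 113.1 and 667 CPM in experiment 1 and 43.4, 27.7, 175.2 and 530 CPM in experiment 2. The bin with 6 or more cell cycle genes stood above the other 3 bins in both measures and both experiments. Hmgb3 was read in 16.2%, 17.1%, 42.9% and 75% of cells in experiment 1 and in 21.7%, 15.9%, 36.4% and 61.5% in experiment 2. Hmgn2 was read in most cells of each bin, and its mean level was 691, 823, 2467 and 3531 CPM in experiment 1 and 348.6, 418, 1009 and 2022 CPM in experiment 2. For Hmgb1 the mean level was 432, 457, 637 and 1211 CPM in experiment 1 and 327.5, 478, 496 and 913 CPM in experiment 2. Hmgn1 was read in 64.9%, 77.6%, 90.5% and 100% of cells in experiment 1, but in 78.3%, 84.1%, 72.7% and 100% in experiment 2.

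**Figure D4:**
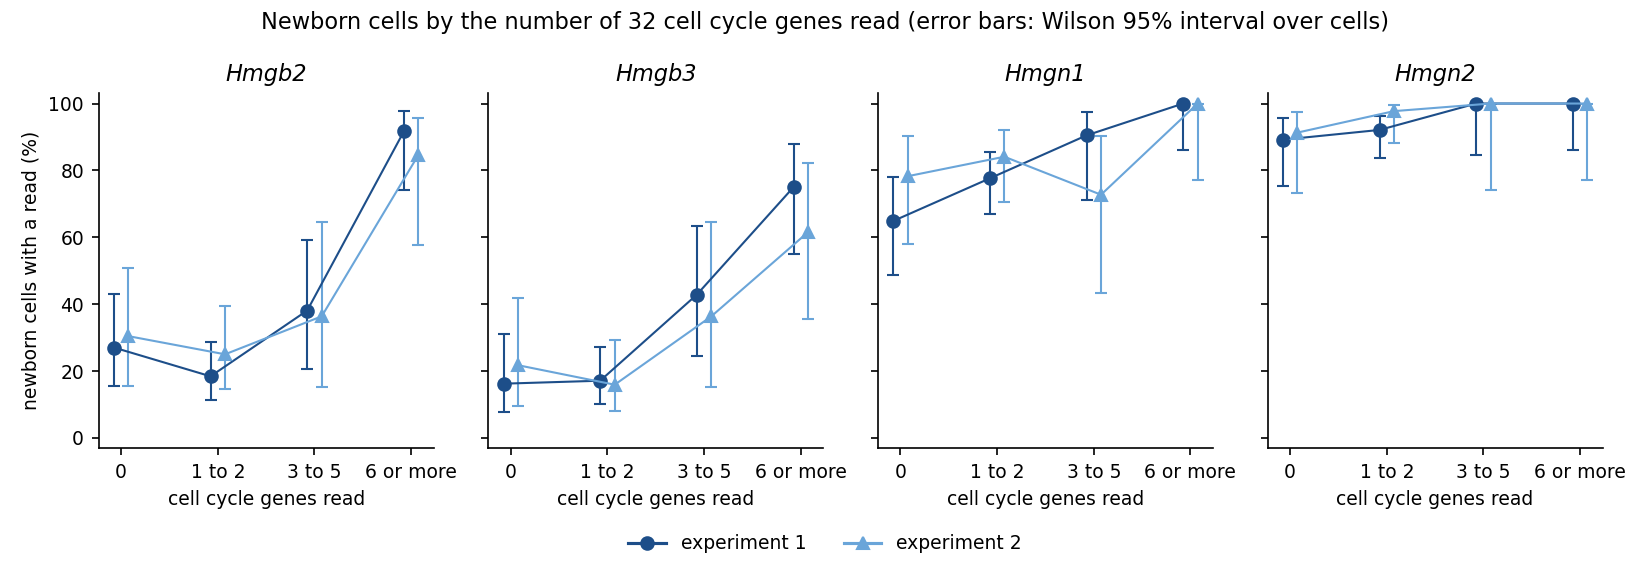
Percent of newborn cells with a read of Hmgb2, Hmgb3, Hmgn1 and Hmgn2 against the number of 32 cell cycle genes read in the cell (0, 1 to 2, 3 to 5, 6 or more); dark circles are experiment 1, light triangles experiment 2, and error bars are Wilson 95% intervals over cells. Hmgb2 reaches 91.7% and 84.6% and Hmgb3 75% and 61.5% in the bin with the most cell cycle genes.

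Without the cells that read 3 or more cell cycle genes, the fitted fold changes of Hmgb2 were smaller than their SE, which is too wide to show equal levels. The log2 fold change for young against newborn sums was then -0.25 ± 0.76 (-2.06 ± 0.68 with all cells), and that for old against newborn sums -0.26 ± 0.76 (-2.20 ± 0.69). For Hmgn2 the values were -0.76 ± 0.44 (young) and -0.83 ± 0.44 (old), and for Hmgb1 -0.17 ± 0.23 and -0.36 ± 0.23. Hmgn1 was at -0.91 ± 0.29 and -0.73 ± 0.29, near its values with all cells. Hmgb3 was at -3.15 ± 0.84 in young against newborn sums (-3.72 ± 0.72 with all cells). Its mean level per newborn cell was 174.3 and 71.8 CPM, against 242.3 and 125.2 CPM over all newborn cells. Hmgb3 also stayed past the threshold in old against newborn sums (adjusted p 0.0283 by edgeR). Among the remaining cells Hmgb3 had reads in 16.8% and 17.9% of newborn cells, 2.90% and 1.053% of young cells and 0% of old cells. Hmgb2 had reads in 21.2% and 26.9% of newborn cells, 12.3% and 17.9% of young cells and 7.32% and 19.4% of old cells. Its mean level per remaining cell was 31.4 and 33.1 CPM in newborn cells, 20.9 and 17.6 CPM in young cells and 7.84 and 30.95 CPM in old cells. The difference between the fits with and without cells that read 3 or more cell cycle genes was not tested.

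**Figure D5:**
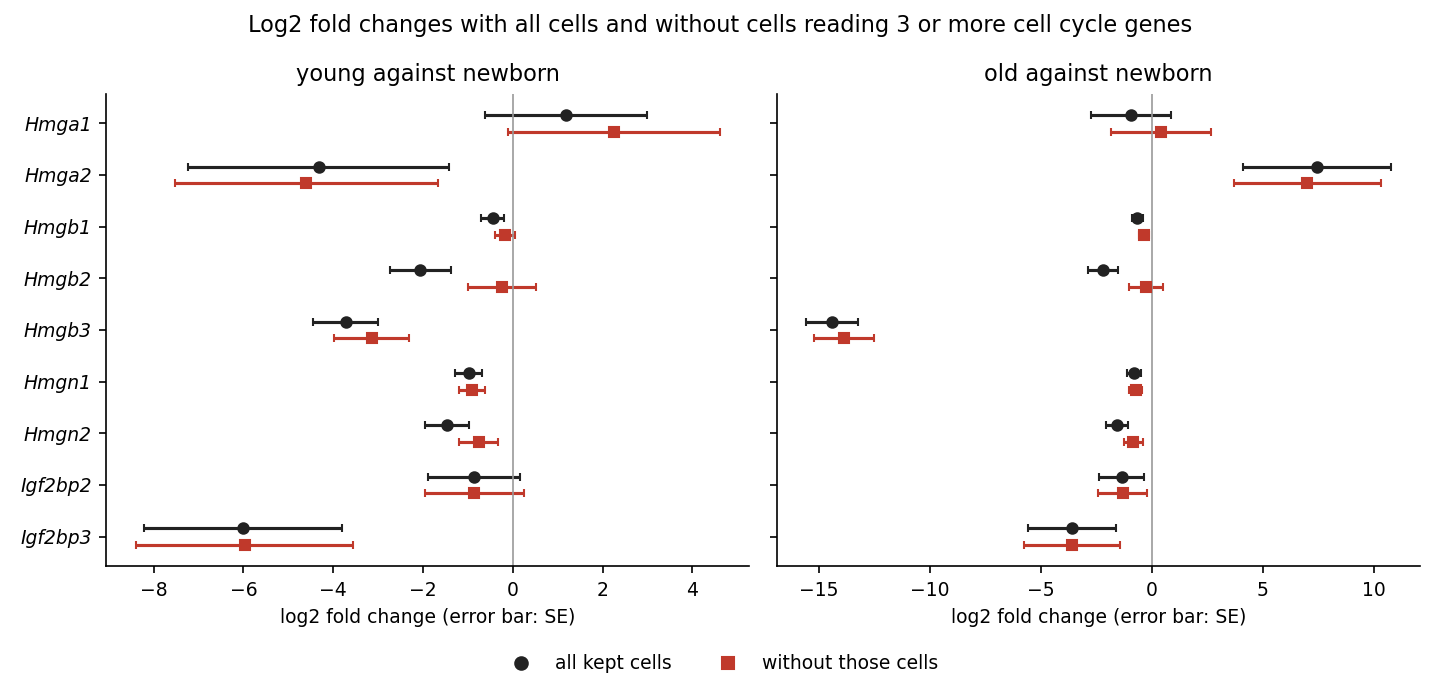
Log2 fold change with its SE for each gene in young against newborn sums (left) and old against newborn sums (right), with all cells (black circles) and without cells reading 3 or more cell cycle genes (red squares); the axes differ between panels. Hmgb2 stands at -2.06 with all cells and at -0.25 without those cells in young against newborn sums. In the same comparison Hmgn1 differs little, and the fold change of Hmgb3 is smaller in size without those cells. Fitted values of Hmga2 and of Hmgb3 in old sums rest on groups at or near 0 reads and depend on the prior count.

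Genes whose plate sums were most like each widely read gene were ranked by Pearson's r of log2(CPM + 1) over 27 plate sums, which share plates and depth. For Hmgb3 they were Gm6104 (r = 0.973), Gm1673 (0.923) and Tpm2, a tropomyosin gene (0.917). Hmgb2 had Gm4739 (0.972), Calu, a calcium-binding protein of the secretory path (0.879), and Siva1 (0.816). For Hmgn1 they were Tacc3, a spindle protein gene (0.828), Gm21596 (0.811) and the tubulin gene Tubb5 (0.801). Hmgb1 had 9330182L06Rik (0.802), the mitotic kinase gene Aurka (0.796) and Lrrc15 (0.789). All 3 genes most like Hmgn2 were copies of it, led by Gm10282 (0.985), and Gm6104, Gm4739 and Gm21596 are copies of Hmgb3, Hmgb2 and Hmgb1. Because the 27 sums span all 3 ages, a high r may largely restate a difference between ages. Likeness within an age was not tested.

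HMG genes have many near-identical processed copies in the mouse genome, and how shared reads were assigned is not given in the sources used here. By alignment of at least 150 bases of coding sequence at 90% identity, such copies were found for 7 of the 9 genes. Copies held 22.9% of the joint reads of Hmgb2 and its copies, 16.3% for Hmgn2, 12.1% for Hmgb1, 5.46% for Hmgb3 and 0.432% for Hmgn1. The share was alike at each age for Hmgb2 (23.2% in newborn sums, 20.8% in young sums and 23.2% in old sums) and for Hmgn2 (16.3%, 16.1% and 16.2%). For Hmga1 copies held 33.5%. For Hmga2 the share differed by age, with 88.5% of the joint reads on the copy in newborn sums, 100% in young sums and 9.62% in old sums. No copy of Igf2bp2 or Igf2bp3 was found. With copy reads added to their gene, the same single call was made, Hmgb3 in old against newborn sums at an adjusted p of 0.0181 by edgeR.

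The remaining HMG genes and Igf2bp1 formed a list of 17, of which 12 were tested. Levels were lower in young than in newborn sums in both experiments for 6 of 12 (32.8% of all genes) and lower in old than in newborn sums for 5 of 12 (32.7%). None passed edgeR's test in any comparison. At an unadjusted p under 0.05 edgeR listed 0 of 12 for young against newborn sums, 0 for old against young and 1 for old against newborn, where 13.3%, 4.85% and 15.2% of all genes were listed. DESeq2 called 0 of them in each comparison, and limma called 0, 0 and 3 of 9, against 19.3%, 0.115% and 26.1% of the genes it tested. Hmgn3, the HMGN gene with the next highest level, was at 296.5 and 218.6 CPM in newborn sums, 195.96 and 201.98 CPM in young sums and 129.02 and 226.98 CPM in old sums. Pbrm1 and Smarce1, subunits of chromatin remodelling complexes, had old against newborn log2 fold changes of -0.04 ± 0.34 and -0.42 ± 0.34.

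Genes of Lin28, let-7 processing and the IGF axis include the upstream regulators of the HMGA and IGF2BP genes. Of 22 listed, 16 were tested. Levels were lower in young than in newborn sums in both experiments for 6 of 16, near the 32.8% of all genes, and lower in old than in newborn sums for 7 of 16 (32.7%). None passed edgeR's test in any comparison. At an unadjusted p under 0.05 it listed 2, 2 and 4 of 16 for young against newborn, old against young and old against newborn sums, against 13.3%, 4.85% and 15.2% of all genes. In the same order DESeq2 called 3, 2 and 4 of 16 (14.1%, 6.28% and 17% of all genes) and limma 3, 0 and 3 of 8 (19.3%, 0.115% and 26.1%). Lin28a, Lin28b and Trim71 had 0 reads at all ages. Igf2, the fetal growth factor whose message gave the IGF2BP proteins their name, was at 32.8 and 124.4 CPM in newborn sums, 1.48 and 9.30 CPM in young sums and 22.3 and 14.5 CPM in old sums. H19, the imprinted transcript beside Igf2, was at 148.1 and 559 CPM in newborn sums, 0.0131 and 45.4 CPM in young sums and 0 and 0.0111 CPM in old sums. Plagl1, an imprinted zinc finger regulator of both, was at 184.7 and 1021 CPM in newborn sums, 1.61 and 81.9 CPM in young sums and 0.0136 and 0.0334 CPM in old sums. Nras and Myc, known let-7 targets, had old against newborn log2 fold changes of 0.02 ± 0.29 and -0.60 ± 0.45.

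Of the 32 cell cycle genes, 28 were lower in young than in newborn sums in both experiments (32.8% of all genes) and 31 in old than in newborn sums (32.7%), with median log2 fold changes of -5.44 and -5.66. None passed edgeR's test in any comparison. At an unadjusted p under 0.05 edgeR listed 15, 2 and 15 of 32 in the order of comparisons above (13.3%, 4.85% and 15.2% of all genes). DESeq2 called 17, 3 and 16 of them (14.1%, 6.28% and 17%), and limma 15, 0 and 17 of 18 (19.3%, 0.115% and 26.1%). Listed genes with 0 reads in adult sums, such as Cdk1 and Ccnb1, could enter limma's set only through newborn cells. Calls of limma on such genes are no separate support. Pcna, the replication clamp and the gene of the list with the highest mean level, did not share that direction. It was at 162.8 and 157.6 CPM in newborn sums, 147.9 and 208.4 CPM in young sums and 196.8 and 189.8 CPM in old sums (log2 fold changes 0.15 ± 0.25 for young and 0.27 ± 0.25 for old against newborn). Stmn1, a tubulin-binding protein gene, was at 334.5 and 205.98 CPM in newborn sums, 12.05 and 28.5 CPM in young sums and 12.4 and 13.4 CPM in old sums. Tyms and Rrm2, which make DNA precursors, had old against newborn log2 fold changes of -1.39 ± 0.59 and -3.99 ± 3.29.

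Of 27 other abundant chromatin protein genes, 21 were lower in young than in newborn sums in both experiments (32.8% of all genes) and 17 in old than in newborn sums (32.7%), with medians of -0.58 and -0.71. None passed edgeR's test, and 4, 0 and 6 of 27 had an unadjusted p under 0.05 (13.3%, 4.85% and 15.2% of all genes). DESeq2 called 2, 0 and 4 of them (14.1%, 6.28% and 17%), and limma 5, 0 and 11 of 23 (19.3%, 0.115% and 26.1%). H2afz, a histone variant gene, had an old against newborn log2 fold change of -1.21 ± 0.19 (adjusted p 0.0765 by edgeR), and H3f3b, encoding histone H3.3, one of 0.78 ± 0.18 (0.162). H3f3a, the other H3.3 gene, stood at -0.82 ± 0.32, and Ptma, encoding prothymosin alpha, at -0.20 ± 0.32.

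Of 7 listed cyclin-dependent kinase inhibitor genes 6 were tested, and none passed edgeR's test. At an unadjusted p under 0.05, 2, 1 and 2 of 6 were listed in the same order of comparisons (13.3%, 4.85% and 15.2% of all genes). DESeq2 called 3, 0 and 3 of 6 (14.1%, 6.28% and 17%), and limma 2, 0 and 2 of 5 (19.3%, 0.115% and 26.1%). Cdkn1a, encoding p21, was at 89.9 and 65.3 CPM in newborn sums, 423 and 303.4 CPM in young sums and 567.9 and 377.6 CPM in old sums. Its log2 fold change was 2.23 ± 0.35 for young against newborn sums (adjusted p 0.0928 by edgeR) and 2.61 ± 0.35 for old against newborn sums (0.063). Cdkn1c, an imprinted inhibitor, was at 96.6 and 113.5 CPM in newborn sums, 13.4 and 37.2 CPM in young sums and 9.78 and 8.17 CPM in old sums. Cdkn2d and Cdkn2c, inhibitors of Cdk4 and Cdk6, had old against newborn log2 fold changes of -0.51 ± 0.63 and 0.16 ± 0.63.

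Of 8 genes for receptors and binders of extracellular HMGB1, 7 were tested and none passed edgeR's test. At an unadjusted p under 0.05, 2, 1 and 2 of 7 were listed (13.3%, 4.85% and 15.2% of all genes), while DESeq2 called 2, 1 and 2 of 7 (14.1%, 6.28% and 17%) and limma 1, 0 and 2 of 3 (19.3%, 0.115% and 26.1%). In young against newborn sums 4 of 7 were higher in both experiments (28.4% of all genes) and 2 were lower (32.8%), and in old against newborn sums also 4 were higher (27%) and 2 lower (32.7%). The chemokine gene Cxcl12 was at 83.01 and 246.1 CPM in newborn sums, 161.9 and 575 CPM in young sums and 243.5 and 435 CPM in old sums. Cd24a, which encodes a surface glycoprotein, had 0 reads in all adult sums, against 111.7 and 216.1 CPM in newborn sums (adjusted p 0.0555 for young and 0.0512 for old by edgeR). Without adult reads, Cd24a could enter limma's set only through newborn cells. Thbd, encoding thrombomodulin, and the receptor gene Tlr2 had old against newborn log2 fold changes of 1.45 ± 0.68 and 1.71 ± 0.90.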

How the data were processed

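Dermal fibroblasts of mice at 3 ages were profiled cell by cell with Smart-seq2. The authors deposited 1 table per plate, which holds raw counts of reads for each gene in each well. The submitters' processing notes name GRCm38 and FastQC. The sources used here do not give the aligner, the counter or the strand setting. Of the nonzero counts 74.9% were even, so both mates of a pair may have been counted.

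Of 1049 labelled columns 1044 held values, 183 wells had 2 runs that were added, and 861 wells on 9 plates (5 in experiment 1, 4 in experiment 2) resulted. Such runs were inferred from the counts. Plates listed apart were joined where the median correlation of their wells was above 0.9. It was at least 0.994 for joined plates and at most 0.43 for other pairs. Cells were kept with at least 50000 reads, 1000 genes and at most 25% mitochondrial reads. That left 249 newborn cells out of 256 wells, 246 young cells out of 287 and 240 old cells out of 318, with 246349 to 4331293 reads each. Of 51777 genes common to all plates 51633 were named by GENCODE M21, and they held 99.9% of the reads. Cells are not replicates, so reads were added per age and experiment. The main test was edgeR 4.0.16 (R 4.3.3) with TMM factors, genes passing filterByExpr, and a robust quasi-likelihood fit with age alone in the model, which left 3 residual degrees of freedom (common biological coefficient of variation 1.13). DESeq2 1.42.0 and limma 3.58.1 were alternatives. The SE of a log2 fold change is its size over the root of the F statistic. Plates held all ages, so the experiment is a shared batch. Deviations of same-experiment sums from their age means correlated at 0.0192 to 0.0387, and a fit with the experiment as a block was an alternative. Copies of the genes were found with BLAST+ 2.17.0 (at least 90% identity over 150 bases, copy genes of at most 2000 bases), and adding their reads was an alternative chosen after seeing the data. Confidence intervals and the limits allowed by 0 cells (3 cells) cover counting error only.

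The genes and lists were chosen with earlier results of these data known. All 9 genes were described in full. Of each other list the text names at most 4 genes with the highest mean CPM, and 1 of these is not reported here. Igf2, Igf2bp1, Lin28a, Lin28b and Trim71 are named beside them for their known tie to the 9 genes, after their values were seen. Likeness was ranked for genes with a read in 10% or more of the cells at some age, with the 3 highest r given. Scripts were tested on simulated data.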

Additional observations from a re-analysis of the deposited data

Results flagged for a closer look

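Plate sums of the 5 widely read genes were checked for a sum standing far from the other 8 of its age, and 2 of 15 sets of plates held one. For Hmgb2 in young cells, 1 plate of experiment 2 had 56.2 CPM (1407 reads), and the next highest had 29.9 CPM. Chance marks such a sum in about 1 in 20 sets. For Hmgb3 in old cells, 1 plate of experiment 2 had 0.0532 CPM, which was 2 reads in 1 cell, and the other 8 plates had 0. With the others at 0 any read would have stood apart, so that set says nothing about a chance rate.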

How the results depend on the processing

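The share of tested genes past the threshold depended on the tool and on the genes tested. For young against newborn sums edgeR called 0.779% of genes (92.3% of the calls higher), DESeq2 14.1% (57.04% higher), limma on mean log2(CPM + 1) per cell 19.3% (33.6% higher, with a median log2 fold change of -0.26 over all genes), edgeR on genes with a read in 10% of cells 7.06% (75.8% higher), on thinned cells 1.84%, with the replicate block 0.15%, and with 1 sum left out 0 to 0.223%. For old against young sums edgeR called 0%, DESeq2 6.28%, edgeR without a filter on low counts 0.00875%, on genes with a read in 10% of cells 0.129%, and limma 0.115%. For old against newborn sums edgeR called 0.935% (85.3% higher), DESeq2 16.95% (50.8% higher), limma 26.1% (21.7% higher, median -0.38), edgeR on genes with a read in 10% of cells 7.89% (70.5% higher), on thinned cells 2.1%, with the replicate block 0.306%, and with 1 sum left out 0 to 0.25%. Of the 9 genes, young against newborn sums gave 5 calls by DESeq2, 3 by limma and 1 by edgeR on genes with a read in 10% of cells. That last call was Hmgb3, which met the 10% limit only through newborn cells, there as in limma's set. Old against young sums gave 1 by DESeq2 and 1 on genes with a read in 10% of cells, and old against newborn sums gave 3 by DESeq2, 4 by limma, 0 with the replicate block and 0 with any 1 sum left out. With the replicate block the adjusted p of Hmgb3 in old against newborn sums was 0.0677, and the block changed no other call on the 9 genes. Hmgb3 in old against newborn sums was past the threshold in 11 of 18 alternatives, with an adjusted p of 1.17e-32 by DESeq2. The 11 include limma and edgeR on genes with a read in 10% of cells, whose calls on Hmgb3 are no separate support. Alternatives also share most of their cells, so the 11 are not independent results.

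Of 458 alternative values of the 9 genes' fold changes, 425 kept direction and side of the threshold, 16 newly passed it, 7 no longer passed, and 10 turned round. Those 10 were for results that did not pass. Young against newborn, Hmga1 was at -0.042 with thinned cells and Hmga2 at 2.11 with copies added. Old against young, Hmgb2 was at 0.12 with stricter cells. With 1 sum left out, old against young values ran from -1.30 to 0.48 for Hmgb2 (highest without old replicate 1), from -0.39 to 0.29 for Hmgn2 (highest without young replicate 1, and 0.13 without old replicate 1), from -1.07 to 0.47 for Igf2bp2 (highest without young replicate 1) and from -0.10 to 0.52 for Hmgn1 (lowest without young replicate 2). Old against newborn, Hmga1 was at 0.40 without cells reading cell cycle genes and ran from -4.795 to 0.032 with 1 sum left out (highest without old replicate 1). The cause was not tested. Of 54 shares, 5 moved beyond their interval at 5 reads and 2 at 50000 reads. With 2 sums per age and 3 residual degrees of freedom, few differences can pass. Shares under about 1% of the cells of an age were not measurable. Within 1 age and experiment that limit was 1.9% to 3.3% of cells, and some adult shares given above lie under it.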
